A study of Mus musculus with 27 samples.

Results

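The Notch pathway was described here through 10 genes in mouse tibialis anterior muscle after volumetric muscle loss (VML), the excision of a volume of muscle too large for the muscle to restore. The genes encode 3 ligands (Dll1, Dll4 and Jag1), 3 receptors (Notch1, Notch2 and Notch3), the DNA-binding transcription factor Rbpj and 3 target genes (Hes1, Hey1 and Heyl). They were taken by symbol from the 54532 genes of the deposited expression table, and each symbol matched 1 row. All 10 passed the filter on low values.

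Notch signalling runs between touching cells. A ligand of the Delta or Jagged family on one cell binds a Notch receptor on the next, the receptor is cut by ADAM proteases and then by gamma-secretase, and the freed intracellular domain joins Rbpj on DNA and turns on genes of the Hes and Hey families. In skeletal muscle, Notch signalling is known for holding satellite cells, the muscle stem cells, in quiescence and for restraining the differentiation of myoblasts, and in blood vessels Dll4 and Notch3 are known as genes of endothelial and mural cells.

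The samples were tibialis anterior muscles of C57BL/6 mice, males of 8 weeks, and in the injured groups 40% of the muscle was excised. There were 5 samples labelled control and 5, 6, 6 and 5 samples at 3, 7, 14 and 21 days after injury. The study's methods speak of excision on both sides and the public record of excision on 1 side, and the labels settle neither this nor whether each sample came from a separate animal, so that p-values measure only the spread between these samples, which may be technical. No group carries a genetic alteration, and whether the control mice had a sham operation is not given in the sources used here.

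Polyadenylated RNA was sequenced from whole muscle, and the values are FPKM (fragments per kilobase of gene length, scaled for sequencing depth), so that levels are given per length and can be compared between genes. Between 14376395 and 24436763 reads per sample (median 17398586) lay behind them. Each of the 10 genes held at least 31 reads in every sample, from a median of 103 for Notch1 to 710 for Notch3. In whole muscle, fewer cells of a type and less RNA per cell cannot be told apart. Of the 27 samples, 9 were nearer to the mean profile of another group than to that of their own, among them day 3 replicate 5 (nearest to day 7) and day 7 replicates 3, 5 and 6 (nearest to control, day 3 and day 21), and the results below were also computed without the 2 replicates 5 together and without each sample in turn. Defining markers of skeletal muscle fibres were present in every group, with a summed FPKM of 8 genes of 74392 ± 6875 (SD, n = 5) in control and 35149 ± 11127 (SD, n = 5) at day 3.

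Differences were tested with limma on log2(FPKM + 1) over 14630 genes, all 27 samples in 1 fit, and a gene was called when its p, adjusted over all those genes by the method of Benjamini and Hochberg, was under 0.05. A log2 difference below is the difference between group means of log2(FPKM + 1), which understates the change of genes at low FPKM, so ratios of mean FPKM are given as well. The 4 comparisons with control share the same 5 control samples.

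Sequence upstream of the transcript start is shown for the 4 genes that were called in some comparison, from RefSeq on GRCm38.p6, as the 250 bases before the start, 5′ to 3′ on the gene's strand. RefSeq windows were found for 7 of the 10 genes, 9 windows in all, since Dll1 and Rbpj have 2 starts each. Capitals mark the core of the RBPJ motif, TGGGAA or its reverse complement TTCCCA, and the palindromic E-box CAGCTG, a motif bound by myogenic factors of the MyoD family. The windows are those of Notch2 (chr3:98013288-98013537, + strand), the Dll1 start nearest to the end of the gene in the table (chr17:15376933-15377182, - strand), Dll4 (chr2:119325534-119325783, + strand) and the first Rbpj start (chr5:53590096-53590345, + strand), which lies 124194 bases inside the gene as the table gives it.
Notch2: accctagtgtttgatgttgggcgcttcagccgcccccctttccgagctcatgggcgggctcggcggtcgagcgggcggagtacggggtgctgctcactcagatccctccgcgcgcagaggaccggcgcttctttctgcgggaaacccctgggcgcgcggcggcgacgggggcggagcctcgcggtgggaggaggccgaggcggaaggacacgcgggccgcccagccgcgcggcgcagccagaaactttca
Dll1: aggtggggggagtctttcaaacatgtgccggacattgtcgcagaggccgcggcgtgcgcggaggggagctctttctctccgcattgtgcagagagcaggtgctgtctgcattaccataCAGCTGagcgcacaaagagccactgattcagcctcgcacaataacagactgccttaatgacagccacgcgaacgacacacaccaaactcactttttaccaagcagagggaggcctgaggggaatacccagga
Dll4: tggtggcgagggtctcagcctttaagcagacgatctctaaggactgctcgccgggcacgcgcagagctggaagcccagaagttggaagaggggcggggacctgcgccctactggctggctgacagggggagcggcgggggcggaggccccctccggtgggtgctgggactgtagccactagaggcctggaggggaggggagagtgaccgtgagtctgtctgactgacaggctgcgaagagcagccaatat
Rbpj: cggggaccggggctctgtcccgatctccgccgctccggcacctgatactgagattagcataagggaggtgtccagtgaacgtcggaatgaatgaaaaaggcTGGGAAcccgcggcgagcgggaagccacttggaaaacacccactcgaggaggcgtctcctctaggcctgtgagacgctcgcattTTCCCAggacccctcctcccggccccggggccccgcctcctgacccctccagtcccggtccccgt

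The RBPJ core was found in 2 of the 9 windows, both of Rbpj itself and overlapping each other, and in 7094 of 32851 RefSeq windows of 250 bases (21.6%). In the Rbpj window shown, the 2 matches began 149 and 65 bases before the start. The E-box was found in 2 windows, those of Dll1 shown here, 132 bases before the start, and of Jag1, 82 bases before it, and in 4271 of all 32851 windows. The windows of Notch2 and Dll4 held neither motif. These are matches of letters and say nothing of binding in these muscles.

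In control muscle the mean FPKM of the 10 genes ran from 0.473 for Notch1 to 18.8 for Hes1. Hes1 had the highest mean of the 10 in all 5 groups and Notch1 the lowest. Among the 3 ligands of the 10, Dll4 was first in each group. Its mean was 6.99 ± 0.868 (SD, n = 5) in control, against 1.94 ± 0.311 for Jag1 and 1.19 ± 0.459 for Dll1. Jag2, a ligand outside the 10, had a higher mean than Dll4 in each injured group (5.23 against 3.54 at day 3, 8.28 against 7.20 at day 21). Among the receptors Notch3 was first in each group, with 4.09 ± 0.519 in control against 0.536 ± 0.180 for Notch2. Dll1 was in place 8 of the 10 in control and in place 4 at day 14, where its mean of 4.45 was above those of Heyl and Jag1.

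**Figure D1:**
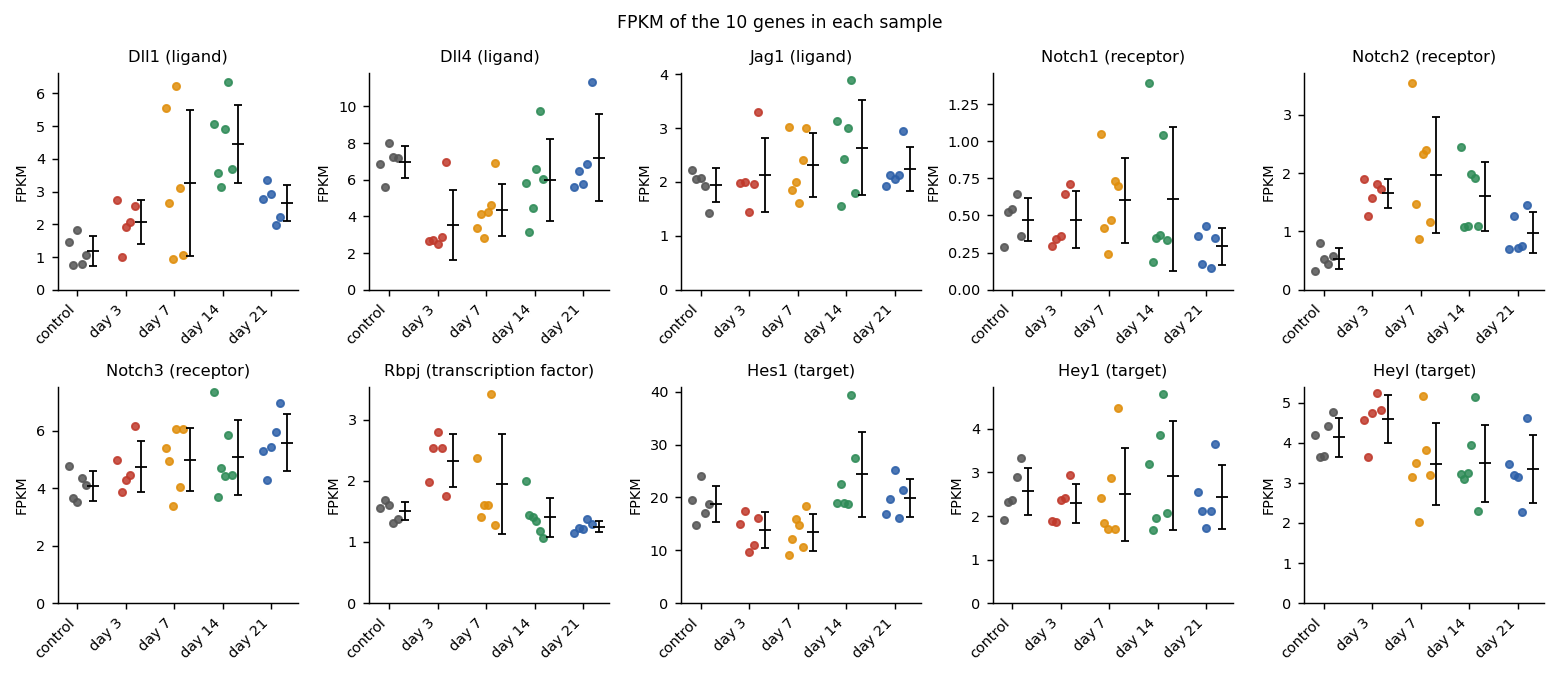
FPKM of the 10 genes in the 27 samples, by group on the x axis. Points are samples in the order of their replicate numbers, and black bars are the group mean and SD. Notch2 lies between 1.27 and 1.90 at day 3 and between 0.327 and 0.808 in control, and Dll4 at day 3 lies between 2.50 and 2.88 in 4 samples and at 6.95 in the fifth.

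At day 3, 3 of the 10 genes were called, Notch2 and Rbpj higher and Dll4 lower. Over all genes tested, 23.4% were called higher and 19.8% lower in this comparison. At day 7, Notch2 and Dll1 were higher and Dll4 lower, against 15% of all genes higher and 14.4% lower. At day 14, Notch2 and Dll1 were higher and none of the 10 was lower, against 9.02% and 11.3% of all genes. At day 21, limma called 0 of the 10, against 1.74% of all genes higher and 1.69% lower, and 2 of the 10 (Notch3 and Dll1) had an unadjusted p under 0.05, as did 19.8% of all genes. With sample quality weights 1 of the 10 (Dll1) was called at day 21, against 16.9% of all genes in that setting. Counts of 0 to 2 in a direction among 10 genes do not stand far from these shares. With FPKM rescaled so that every sample sums to the same total (TPM), 6 of the 10 were higher and none lower at day 3, in a setting where 6868 of all genes were higher and 322 lower in place of 3417 and 2899. The median log2 difference of the 10 genes was 0.10, 0.13, 0.17 and 0.042 at days 3, 7, 14 and 21, and that of all genes 0.012, 0.028, 0.020 and 0.014.

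**Figure D2:**
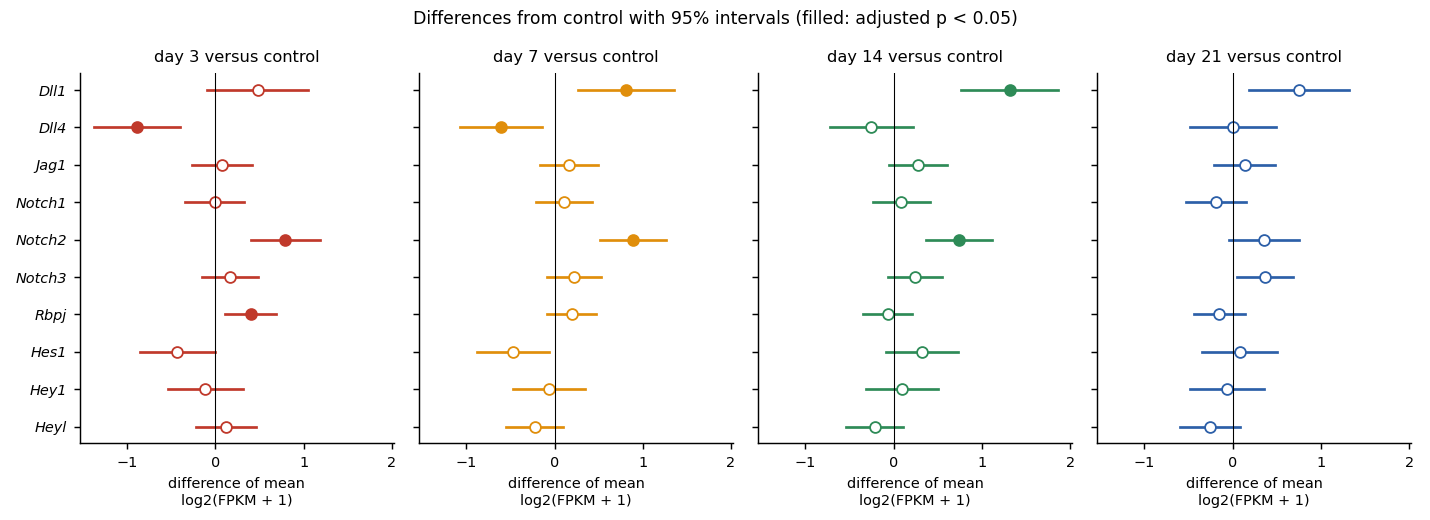
Difference of mean log2(FPKM + 1) from control for each of the 10 genes at days 3, 7, 14 and 21, with its 95% interval. Filled points have an adjusted p under 0.05. Notch2 is filled at days 3, 7 and 14 with values of 0.79, 0.89 and 0.74, Dll4 lies at -0.89 at day 3 and 0.0053 at day 21, and no point is filled at day 21.

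Dll1 (ENSMUSG00000014773) encodes a Delta-like ligand known from differentiating myoblasts. The gene lies on the - strand at chr17:15367354-15376872. In control its FPKM was 1.46, 0.771, 1.84, 0.789 and 1.07 in replicates 1 to 5, and at day 3 it was 2.74, 1.01, 1.91, 2.08 and 2.56. At day 7 the lowest, median and highest samples were 0.946, 2.88 and 6.22, and at day 14 they were 3.15, 4.29 and 6.33. At day 21 the values were 2.77, 3.35, 2.91, 1.99 and 2.23. All 6 samples of day 14 and all 5 of day 21 were above the highest control sample, whereas 1 sample of day 3 and 2 of day 7 lay among the controls.

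The ratio of mean Dll1 FPKM to control was 1.74, 2.75, 3.75 and 2.23 at days 3, 7, 14 and 21. Dll1 was called at day 7 (log2 difference 0.81, SE 0.27, limma adjusted p = 0.0236) and at day 14 (1.31, SE 0.27, adjusted p = 0.00188). It was not called at day 3 (0.48, 95% interval -0.091 to 1.05, adjusted p = 0.171), nor at day 21 (0.75, interval 0.18 to 1.32, adjusted p = 0.128), where no sample overlapped the controls. The order of its means was day 14, day 7, day 21, day 3 and control, and of these neighbours only day 3 and control differed by more than the larger SD of the pair. The call at day 14 was kept in all 42 alternatives. The call at day 7 was lost with no filter, with quantile normalization, with only the 2 groups in the fit (adjusted p = 0.0997), and without control replicate 2 or 4 or day 7 replicate 1 or 4 (highest adjusted p = 0.0746), and that at day 21 was gained with only the 2 groups in the fit (adjusted p = 0.016) and with sample quality weights (0.00469). A lincRNA on the other strand, A930024N18Rik, overlaps the gene, and the library kept no strand. It had at most 50 reads in a sample, against 41 to 629 for Dll1.

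Differentiating myoblast markers (Myod1, Myog, Mymk, Mymx, Myh3 and Myh8) rose beside Dll1, with 6 of 6 genes called higher at days 3, 7 and 14 and 3 of 6 at day 21. Of all genes, 23.4%, 15%, 9.02% and 1.74% were called higher at these times. Their summed FPKM was 16.5 to 26.0 in control, and 177 to 513, 25.8 to 305, 112 to 218 and 46.4 to 164 in the injured groups in order of time. The mean of the sum was highest at day 3 (412), where Dll1 averaged 2.06 against 4.45 at day 14. The 2 samples of day 7 with Dll1 in the range of the controls, replicates 3 and 6 at 0.946 and 1.07, had the lowest myoblast sums of their group, 25.8 and 26.6. These samples also stood apart in other ways, with myofibre sums of 75005 and 66697 against 23623 to 48064 in the other 4 of day 7. Without the first of them the day 7 difference of Dll1 was 1.001, and without the second 0.98 (limma adjusted p = 0.00339 and 0.00492). Over the 27 samples, Pearson's r of log2 Dll1 with this sum was 0.62, and 0.73 for deviations from the group means, with samples that share the scaling of the table. Other sums gave 0.62 and 0.46 (lymphocyte), 0.079 and 0.53 (satellite cell), -0.51 and -0.64 (myofibre) and -0.54 and -0.58 (erythroid). The part of any of these cells in the level of Dll1 was not tested.

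Dll4 (ENSMUSG00000027314), on the + strand at chr2:119325784-119335962, encodes the Delta-like ligand best known from endothelial tip cells and arteries. In control its FPKM was 6.88, 5.63, 8.01, 7.25 and 7.16. At day 3 it was 2.66, 2.71, 2.50 and 2.88 in replicates 1 to 4 and 6.95 in replicate 5. At day 7 the lowest, median and highest samples were 2.80, 4.19 and 6.92. At day 3, 4 of 5 samples lay below the lowest control, as did 5 of 6 at day 7, and the remaining sample of each group lay among the controls.

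At the later times Dll4 was within or above the control range in 4 of 6 and 4 of 5 samples. At day 14 the lowest, median and highest were 3.17, 5.93 and 9.77, and at day 21 the 5 samples had 5.62, 6.47, 5.76, 6.84 and 11.3. The ratio of the means to control was 0.507, 0.623, 0.854 and 1.03 at days 3, 7, 14 and 21. The log2 difference was -0.89 at day 3 (SE 0.24, limma adjusted p = 0.00374) and -0.61 at day 7 (SE 0.23, adjusted p = 0.0442), and neither day 14 (-0.25, 95% interval -0.72 to 0.22) nor day 21 (0.0053, interval -0.48 to 0.49) was called. No 2 neighbours in the order of its means, which ran from day 21 through control, day 14 and day 7 to day 3, differed by more than the larger SD of the pair.

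Without day 3 replicate 5 and day 7 replicate 5, the difference of Dll4 was -1.11 at day 3 (adjusted p = 0.000278) and -0.63 at day 7 (adjusted p = 0.0304). The call at day 7 was lost without any one of control replicates 1, 3, 4 and 5, day 7 replicates 1 to 5 and day 21 replicate 2 (highest adjusted p = 0.0917), with no filter and with quantile normalization (adjusted p = 0.0515). Both calls depended on the scaling between samples. In TPM, the median of all genes moved to 0.51 at day 3 and 0.48 at day 7, and Dll4 was at -0.21 (adjusted p = 0.498) and 0.0071 (adjusted p = 0.981), which is -0.72 and -0.47 relative to those medians. With the reads of each sample divided by the sum of its own reads, the differences were -0.34 and -0.14, neither of them called. Gm14207, a transcript of the other strand that overlaps Dll4, had at most 64 reads in a sample, against 171 to 645 for Dll4.

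Of 8 endothelial marker genes (Pecam1, Cdh5, Kdr, Tek, Tie1, Emcn, Erg and Esam), 2 were called lower at day 3, Kdr and Tek, and Kdr alone at days 7, 14 and 21, with no gene higher. Of all genes, 19.8%, 14.4%, 11.3% and 1.69% were called lower at these 4 times. In TPM, 1 of the 8 was lower at day 3 and 1 higher, where 2.2% and 46.9% of all genes were. Their summed FPKM was 97.4 to 119.9 in control, and 65.1 to 143, 46.1 to 106, 76.4 to 193 and 94.2 to 141 in the injured groups in order of time. In each of the 4 injured groups the sample with the highest Dll4 also had the highest endothelial sum, which it did not in control. Over the 27 samples Pearson's r of log2 Dll4 with the sum was 0.82, and 0.85 for deviations from the group means. Other sums gave 0.48 and 0.70 (pericyte and smooth muscle), 0.62 and 0.66 (adipocyte) and -0.71 and -0.31 (macrophage). The median of the 8 endothelial markers at day 3 in TPM was 0.39 in place of -0.34, beside a median of all genes of 0.51. How much of the difference in Dll4 goes with endothelial RNA was not tested.

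Jag1 (ENSMUSG00000027276, chr2:137081456-137116644, - strand), a Jagged ligand of vessel walls and many epithelia, was called in none of the comparisons of the fit used throughout. Its FPKM ranged from 1.42 to 2.23 in control, and the ranges 3, 7, 14 and 21 days after injury were 1.45 to 3.29, 1.62 to 3.03, 1.56 to 3.89 and 1.93 to 2.95, so that every group overlapped the controls. The log2 difference was 0.075 at day 3 (95% interval -0.27 to 0.42), where it turned negative without day 3 replicate 5 (-0.044) and with quantile normalization, and 0.28 at day 14 (interval -0.053 to 0.60). The ratios of mean Jag1 to control in order of time were 1.10, 1.19, 1.36 and 1.15. In TPM and with reads divided by the sum over the sample, Jag1 was among the genes called higher at days 3 and 7, and in the latter also at day 14. None of the neighbouring means of Jag1 differed by more than their spread.

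Notch2 (ENSMUSG00000027878), on the + strand at chr3:98013527-98150361, is 1 of the receptors of satellite cells and is also found on macrophages and other cells. Its FPKM in control was 0.327, 0.808, 0.530, 0.437 and 0.577, from 47 to 150 reads. At day 3 it was 1.90, 1.27, 1.58, 1.81 and 1.72. At day 7 the lowest, median and highest samples were 0.876, 1.90 and 3.55, and at day 14 they were 1.08, 1.5 and 2.45. Every sample of days 3, 7 and 14 was above the highest control.

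At day 21 Notch2 was at 0.698, 1.27, 0.719, 0.753 and 1.45, with 2 of 5 samples above the highest control. The ratios of the group means to control, in order of time, were 3.09, 3.67, 2.99 and 1.82. The log2 difference was 0.79 (SE 0.19, limma adjusted p = 0.00159), 0.89 (SE 0.18, adjusted p = 0.00116) and 0.74 (SE 0.18, adjusted p = 0.00687) at days 3, 7 and 14, and 0.35 at day 21 (95% interval -0.039 to 0.75, adjusted p = 0.305). With a pseudocount of 0.1 in place of 1 the 3 called differences were 1.5, 1.60 and 1.39. All 3 calls were kept in each of the 42 alternatives. In the order of its means, day 7, day 3 and day 14 did not differ beyond their spread, whereas day 14 and day 21, and day 21 and control, each differed by more than the larger SD of the pair although their ranges overlapped.

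At day 3, 2 of the 10 genes (Notch2 and Rbpj) had all samples above every control, and of all genes tested 19.8% did. At day 7 Notch2 alone did, against 7.25% of all genes, at day 14 Notch2 and Dll1 did, against 7.67%, and at day 21 Dll1 alone did, against 5.26%. Macrophage markers had 6, 5, 2 and 0 of 6 genes (Adgre1, Cd68, Csf1r, Itgam, Lyz2 and Mrc1) called higher in order of time, with a summed FPKM of 16.9 to 24.7 in control and 311 to 2136 at day 3. By day 14 the macrophage sum was 43.7 to 101, and Notch2 was 1.08 to 2.45. Satellite cell markers (Pax7, Myf5, Calcr, Chodl, Sdc4 and Cdh15) had 2 of 5 tested genes higher at day 3, Pax7 and Cdh15, and none called at days 7, 14 and 21. Their summed FPKM was 18.6 to 23.7 in control and 23.5 to 46.1 at day 3. Differentiating myoblast markers had 6, 6, 6 and 3 of 6 genes called higher in order of time, and markers of fibro-adipogenic progenitors (Pdgfra, Dcn, Lum, Pi16 and Dpt), the stromal cells of muscle, 3, 4, 3 and 0 of 5. The shares of all genes called higher in order of time were 23.4%, 15%, 9.02% and 1.74%. Pearson's r of log2 Notch2 over the 27 samples was 0.72 with the myoblast sum, 0.67 with the macrophage sum, 0.62 with the fibro-adipogenic sum and -0.84 with the myofibre sum. For deviations from the group means these were 0.53, 0.46, 0.23 and -0.77. The part of these cells in the level of Notch2 was not tested.

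**Figure D3:**
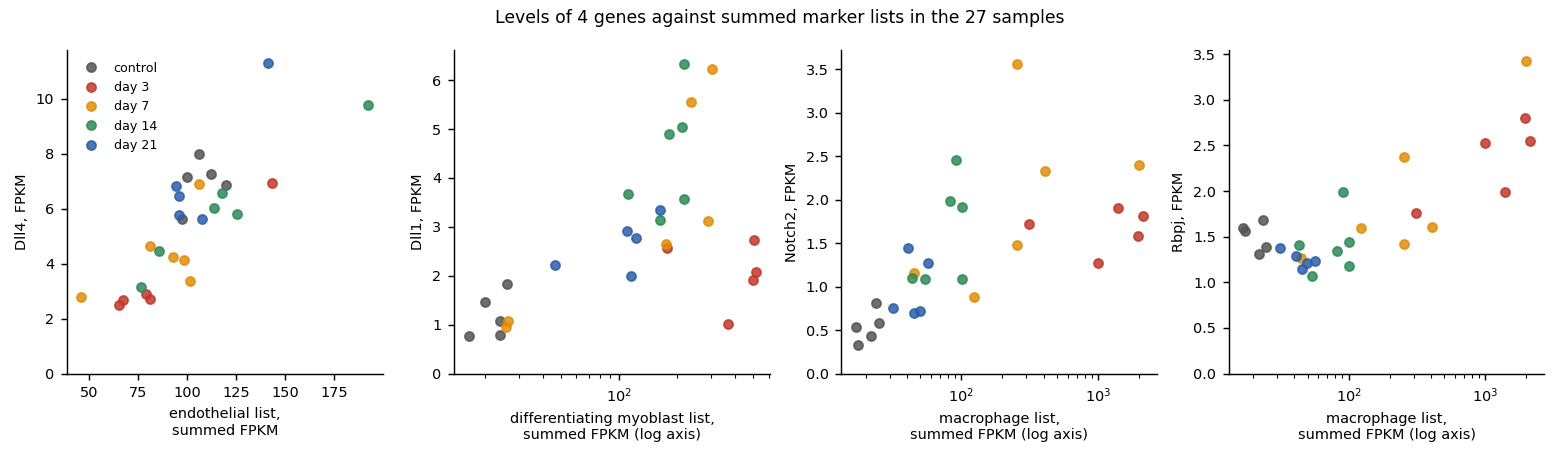
FPKM of Dll4, Dll1, Notch2 and Rbpj on the y axes against the summed FPKM of a marker list on the x axes (endothelial on a linear axis, differentiating myoblast and macrophage on log axes), with 1 point per sample coloured by group. Dll4 at 11.3 in day 21 replicate 5 goes with an endothelial sum of 141, and the day 3 samples with myoblast sums up to 513 have a Dll1 no higher than 2.74.

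Notch1 (ENSMUSG00000026923, chr2:26457903-26516663, - strand) and Notch3 (ENSMUSG00000038146, chr17:32120820-32166880, - strand) are the other 2 receptors. Notch1 had an FPKM of 0.290 to 0.645 in control and 0.145 to 0.432 at day 21, with a highest value of 1.39 at day 14. Notch3, known from pericytes and vascular smooth muscle, had 3.51 to 4.78 in control and 4.28 to 6.97 at day 21. Notch1 is overlapped on the other strand by 0610009E02Rik, with at most 29 reads in a sample against 31 to 441 for Notch1. Neither receptor was called in the fit used throughout, and in each group both overlapped the controls.

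The widest departure of Notch1 from control was at day 21 (log2 difference -0.19, 95% interval -0.52 to 0.15, adjusted p = 0.557), where the ratio of mean FPKM was 0.618, and the ratios before that were 0.995, 1.27 and 1.29. Notch3 was nearest to a call at day 21, with a ratio of means of 1.37, 4 of 5 samples above the highest control, and a log2 difference of 0.37 (interval 0.049 to 0.68, limma adjusted p = 0.182). Its ratios at the earlier times were 1.16, 1.22 and 1.24, with log2 differences of 0.17, 0.22 and 0.24. In TPM Notch3 was called higher at days 3 and 7 (0.84 and 0.82, adjusted p = 0.0078 and 0.0102, which is 0.33 and 0.34 relative to all genes), and with reads divided by the sum over the sample it was called at days 3, 7 and 14. Pericyte and smooth muscle markers had 0 of 8 genes called at day 21, where 1.74% of all genes were called higher and 1.69% lower. Their summed FPKM was 211 to 280 in control and 208 to 321 at day 21. Neighbouring means of Notch3, in the order day 21, day 14, day 7, day 3 and control, did not differ beyond their spread.

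Rbpj (ENSMUSG00000039191), on the + strand at chr5:53466152-53657362, encodes the DNA-binding partner of all Notch receptors, which represses targets when no Notch domain is bound. In control its FPKM was 1.56, 1.68, 1.60, 1.31 and 1.38, and at day 3 it was 1.99, 2.53, 2.81, 2.54 and 1.76. At day 7 the lowest, median and highest samples were 1.27, 1.60 and 3.42, and at day 14 they were 1.07, 1.37 and 1.99. At day 21 the values were 1.14, 1.23, 1.21, 1.37 and 1.29. Every day 3 sample was above every control, and 4 of 5 day 21 samples were below the lowest control.

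The ratio of mean Rbpj FPKM to control was 1.54, 1.29, 0.933 and 0.830 at days 3, 7, 14 and 21. Rbpj was called at day 3 only (log2 difference 0.40, SE 0.14, limma adjusted p = 0.0235), and that call was lost with quantile normalization (0.21, adjusted p = 0.204), without control replicate 4 and without day 3 replicate 3 or 4 (highest adjusted p of these 0.069). At day 7 the difference was 0.20 (95% interval -0.082 to 0.47), and without day 7 replicate 5, the highest sample, 0.070. Neighbouring means of Rbpj did not differ beyond their spread. The macrophage sum was 2004 in day 7 replicate 5 and 44.7 to 408 in the other 5 samples of day 7, and Pearson's r of log2 Rbpj with it over the 27 samples was 0.79. It was 0.80 with the satellite cell sum, and -0.71 with the myofibre and with the adipocyte sum. For deviations from the group means these were 0.71 (macrophage), 0.65 (satellite cell), -0.64 (myofibre) and -0.70 (adipocyte). The part of any of these cells in the level of Rbpj was not tested. Reads of near-identical pseudogenes cannot be fully told apart from those of Rbpj, and Rbpj-ps3 had at most 14 reads and Rbpj-ps1 none.

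The 3 target genes Hes1, Hey1 and Heyl encode basic helix-loop-helix repressors that Notch signalling turns on, and none of them was called in the fit used throughout, though Hes1 and Heyl were in some alternatives. Hes1 (ENSMUSG00000022528, chr16:30064384-30067796, + strand) had an FPKM of 19.5, 14.7, 24, 17 and 18.8 in control and 14.9, 17.5, 9.68, 10.9 and 16.1 at day 3. At day 7 its lowest, median and highest samples were 9.08, 13.4 and 18.4, and at day 14 they were 18.7, 20.8 and 39.5. At day 21 they were 16.9, 19.7, 25.3, 16.2 and 21.5. The samples of days 3 and 7 lay low within or below the control range, 2 of 5 and 3 of 6 of them below the lowest control, and overlapped the controls.

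The ratio of mean Hes1 FPKM to control, in order of time, was 0.735, 0.715, 1.30 and 1.06. Its log2 difference was -0.43 at day 3 (95% interval -0.86 to -0.0087, limma adjusted p = 0.0937) and -0.47 at day 7 (interval -0.88 to -0.067, adjusted p = 0.0712), and both turned positive in TPM (0.34 and 0.21, which is -0.16 and -0.27 relative to all genes). At day 14 the difference was 0.32 (interval -0.086 to 0.73), and Hes1 was called there in TPM (0.77, adjusted p = 0.0114) and with reads divided by the sum over the sample (0.70, adjusted p = 0.00904). With sample quality weights it was called lower at day 3 (adjusted p = 0.0109) and day 7 (adjusted p = 0.0486), and at day 7 also without day 7 replicate 3 or 6 or day 14 replicate 5. In the order day 14, day 21, control, day 3 and day 7, control and day 3 were the only neighbours that differed by more than the larger SD of the pair.

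Hey1 (ENSMUSG00000040289, chr3:8663359-8667256, - strand) had an FPKM of 1.91 to 3.33 in control and group means between 2.29 at day 3 and 2.93 at day 14. Its log2 difference from control lay between -0.11 and 0.094 at the 4 times, with ratios of mean FPKM between 0.892 and 1.14. Heyl (ENSMUSG00000032744, chr4:123233556-123249875, + strand) had 3.64 to 4.77 in control, with group means of 4.60 ± 0.594 (SD, n = 5) at day 3 and 3.34 ± 0.846 (SD, n = 5) at day 21. Its difference was 0.12 at day 3 and -0.26 at day 21 (95% interval -0.60 to 0.078, adjusted p = 0.392), with ratios of mean FPKM of 1.11 and 0.807. In TPM and with reads divided by the sum over the sample, Heyl was called higher at day 3. For both genes all groups overlapped the controls, and no neighbouring means differed beyond their spread.

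Day 21 was also compared with day 3, the last and the first time after injury. Of the 10 genes, Dll4 was higher at day 21 and Rbpj lower, against 9.23% and 16.2% of all genes called in those directions. Dll4 differed by 0.89 (SE 0.24, limma adjusted p = 0.00736), a ratio of means of 2.03, and was no longer called in TPM (0.38, adjusted p = 0.24) or with reads divided by the sum over the sample (0.51, adjusted p = 0.103). Rbpj differed by -0.55 (SE 0.14, adjusted p = 0.00532), a ratio of 0.538, and was called in all 42 alternatives. Notch2 (-0.44, adjusted p = 0.0919), Hes1 (0.51, adjusted p = 0.0698) and Heyl (-0.38, adjusted p = 0.0884) had unadjusted p under 0.05 and were not called. Hes1 was called without day 3 replicate 2 or day 14 replicate 5 and with sample quality weights (0.56, adjusted p = 0.00656), and Heyl without day 21 replicate 5 (-0.48, adjusted p = 0.0385), with quality weights, in TPM and with reads divided by the sum over the sample.

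Of 63 other genes of the pathway, in a list by role, 57 were tested. At day 3, 17 were called higher and 9 lower, beside 23.4% and 19.8% of all genes. The counts for the later times were 10 and 5, 7 and 1, and 3 and 0, beside the shares of all genes given above for those times. Their median log2 difference at day 3 was 0.039, beside 0.012 over all genes. In TPM the counts at day 3 were 31 higher and 0 lower, where 46.9% and 2.20% of all genes were, and after quantile normalization they were 12 and 12, where 19% and 25.5% were.

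The proteases that cut Notch receptors or their precursors had 5 of 10 genes called higher at day 3, beside 23.4% of all genes. These were Furin, Adam10, Adam17, Aph1a and Aph1c, by 0.46 to 0.89 on the log2 scale. At day 21, 0 of the 10 were called higher, beside 1.74% of all genes. In the comparison of day 21 with day 3, 5 of the 10 were lower, beside 16.2% of all genes, and none higher. Their median at day 3 was 0.38, beside 0.012 over all genes. Across the scalings tried it was 0.30 to 1.08, where the median of all genes ran from -0.12 to 0.51. Adam10, the ADAM protease that makes the ligand-dependent cut, was called at days 3, 7 and 14 (0.79, 0.60 and 0.45).

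Among the genes that modify ligands and receptors, Lfng, the Fringe glycosyltransferase that alters the choice between Delta and Jagged ligands, rose from 1.07 ± 0.548 FPKM in control to 4.90 ± 1.60 at day 3 (SD, n = 5; log2 difference 1.498, limma adjusted p = 0.000114) and was also called at day 7 (1.16). Neurl3, a ubiquitin ligase of the Neuralized family, rose from 0.902 ± 0.406 to 7.43 ± 2.09 at day 3 (SD, n = 5; 2.13, adjusted p = 2.11e-05) and was called at day 7 too (1.04), though not with only the 2 groups in the fit (adjusted p = 0.0703). Of the 5 glycosyltransferases 2 were higher at day 3, and of the 5 ubiquitin ligases 1 was higher and 1 lower. Over all genes 23.4% were higher and 19.8% lower at that time.

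Of the other ligands and the fourth receptor, Jag2 had a mean FPKM of 6.64 in control and 5.23, 6.10, 7.95 and 8.28 at days 3, 7, 14 and 21, and was called only between day 21 and day 3 (0.57). Notch4, an endothelial receptor, had 2.51 in control and 3.00, 3.25, 4.57 and 4.15 afterwards, and was not called. Dlk1, a membrane protein related to Delta, had 0.0301 to 0.290 in control and 0.274 to 15.3 at day 7, where it was called (2.14, limma adjusted p = 0.0107), though not with voom weights on recovered reads (adjusted p = 0.0943). Dll3 was at 0 in every control sample and at most 0.141 in the others, and was not tested.

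Of the 9 genes listed beside Hes1, Hey1 and Heyl as possible targets, 5 were tested. Of these, 3 (Hes6, Id1 and Id3) were called higher at days 3, 14 and 21, Hes6 and Id3 also at day 7. Over all genes, 23.4%, 15%, 9.02% and 1.74% were called higher at days 3, 7, 14 and 21, and 19.8% and 14.4% lower at days 3 and 7. Bhlhe40, a helix-loop-helix repressor, was called lower at days 3 and 7, with mean FPKM of 24.1 in control, 15.1 and 14.8 (log2 differences -0.67 and -0.68), and not at the later times. Hes6 is known as an antagonist of Hes1 that promotes myogenic differentiation, and Id1 and Id3 as targets of bone morphogenetic protein signalling. Hes6 rose from 5.99 ± 1.71 FPKM in control to 30.3 ± 9.76 at day 3 and 17 ± 3.90 at day 21 (SD, n = 5 each; log2 differences 2.13 and 1.38, limma adjusted p = 1.57e-05 and 0.0181). Id1 was at 14.7 ± 6.56 in control and 36.5 ± 6.02 at day 21 (SD, n = 5 each; 1.36, adjusted p = 0.0427), a call kept in 28 of 42 alternatives and lost, among others, without any single one of control replicates 1 to 4 or of the 5 day 21 samples (highest adjusted p = 0.132). Id3 was at 17.8 ± 4.89 and 40.1 ± 6.61 (SD, n = 5 each; 1.16, limma adjusted p = 0.0118), kept in all 42, and Hes6 lost its day 21 call without control replicate 4 or day 21 replicate 2 (highest adjusted p = 0.0629). In TPM, Id3 alone of the 3 was called at day 21. With reads divided by the sum over the sample, Hes6 also lost its day 21 call (highest limma adjusted p of Hes6 in these scalings 0.149).

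Among the inhibitors and genes of turnover, Numbl, which encodes a relative of the Notch inhibitor Numb, rose from 0.730 ± 0.102 FPKM in control to 2.61 ± 0.321 at day 3 (SD, n = 5 each; log2 difference 1.06, limma adjusted p = 3.77e-05). It was also called at day 7 (0.86) and day 14 (0.79), and not at day 21 (0.46, adjusted p = 0.132). The nuclear partners and corepressors of Rbpj were called in both directions at day 3, with 1 of 6 partners higher and 1 lower and 2 of 11 corepressors higher and 4 lower. Of all genes, 23.4% were higher and 19.8% lower there.

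**Figure D4:**
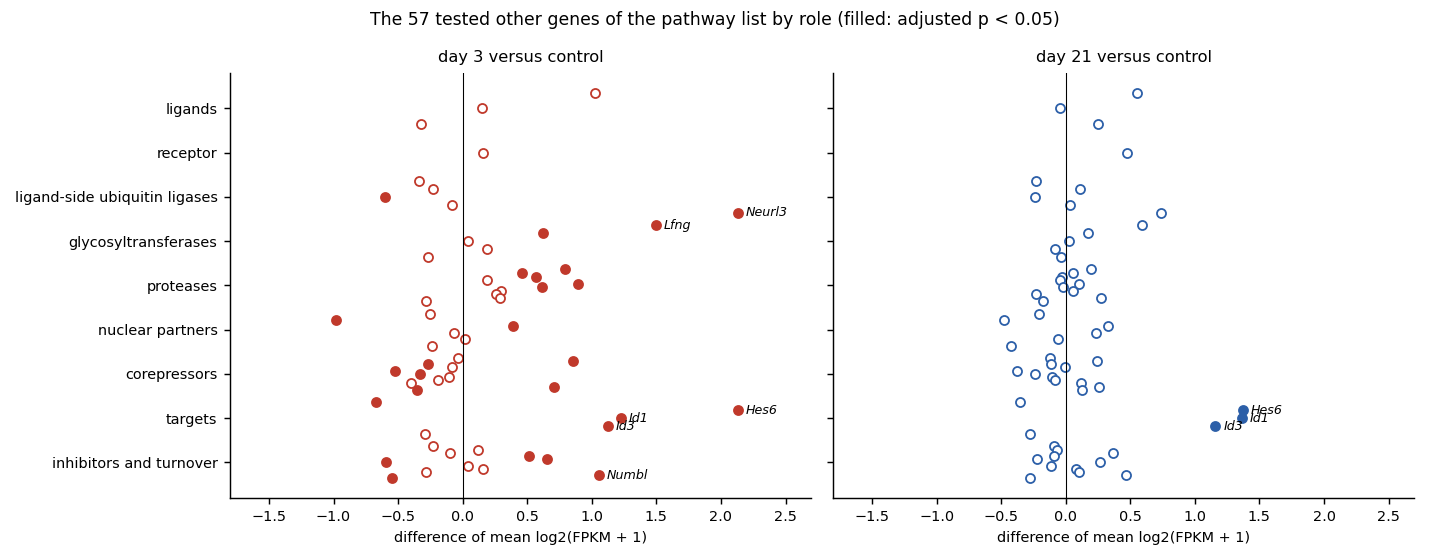
Difference of mean log2(FPKM + 1) from control of the 57 tested other pathway genes, by role on the y axis, at day 3 and at day 21. Filled points have an adjusted p under 0.05, and those of at least 1 are named. At day 3 there are 26 filled points, led by Neurl3 and Hes6 at 2.13, and at day 21 the 3 filled points are Hes6, Id1 and Id3 at 1.38, 1.36 and 1.16.

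The genes whose log2(FPKM + 1) followed each of the 10 most closely over the 27 samples were found by Pearson's r, as a description over samples that share the 5 groups. Dll4 was most like Gimap6 (0.91), Mgll (0.91) and Ushbp1 (0.90), and Dll1 like Mdfi (0.87), Tmem229b (0.86) and Plekhh2 (0.86). Notch2 was most like Hjurp (0.93), Abca1 (0.92) and Flrt2 (0.91), and Rbpj like Adamts4 (0.92), Kpnb1 (0.90) and Calu (0.90). For Hes1 they were Ddit3 (0.83), Tcf15 (0.79) and Cd300lg (0.79), and for Jag1 they were Heg1 (0.84), Cntnap1 (0.83) and Cav1 (0.80). Notch1 was closest to Tut7 (0.87), Luzp1 and Cdc42bpb, Notch3 to Sncaip (0.78), Taok2 and A230050P20Rik, Hey1 to Gm17275 (0.81), Ppil4 and Arhgap31, and Heyl to Tbc1d9b (0.74), Trp53i11 and Cpsf3.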

How the data were processed

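Polyadenylated RNA of 27 tibialis anterior muscles was sequenced from non-directional libraries on a NovaSeq instrument. The authors aligned reads with HISAT2 2.0.5, counted them per gene with featureCounts 1.5.0-p3 and deposited 1 table of FPKM for 54532 genes, with lengths and positions. The genome build is not given in the sources used here, and positions of 98.3% of the 54409 genes found in GENCODE M21 (GRCm38) were the same, those of Notch3 being an exception.

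FPKM times gene length gave whole reads within 0.01, and the denominators in the FPKM were 0.747 to 1.48 times each sample's own total, a scaling between samples that the methods do not name. This factor was 0.747 to 0.819 in the control samples and 1.14 to 1.48 in those of day 3. Median-ratio scaling of the deposited values changed little, with 6313 genes called at day 3 in place of 6316. Groups and replicate numbers came from the labels. A gene entered the fit when 5 or more samples reached an FPKM of 0.5. The fit was made with limma 3.58.1 (R 4.3.3) on log2(FPKM + 1), group means only, a trend of variance with mean, two-sided, with Benjamini-Hochberg adjustment over all 14630 genes of a comparison. The fit was also run on simulated reads with known changes, drawn from the levels and spread of the control samples. That simulation gave every group the spread of the controls, so it checks only the code. RefSeq windows came from GRCm38.p6. Tables and figures used Python 3.11.15, pandas 2.3.3, numpy 2.4.6 and matplotlib 3.10.9.

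The 10 genes and all lists were chosen with earlier results of these data known. Named were all 10 genes, genes of the pathway list called against control with a log2 difference of at least 1 either way, Jag2, Dll3, Notch4 and Dlk1, and the 3 genes most like each of the 10. Other genes of the pathway and marker lists are named as members of a counted list or chosen after their values were seen. The 42 alternatives changed pseudocount, filter, scaling, weights, block or samples, 1 choice at a time.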

Additional observations from a re-analysis of the deposited data

Results flagged for a closer look

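Among 50 sets of values (10 genes in 5 groups), 3 had 1 sample far from the rest by Dixon's ratio, a test that chance alone passes in about 1 of 20 sets. Dll4 was at 6.95 FPKM in day 3 replicate 5, against 2.50 to 2.88 in the other 4 samples. Dll4 was at 11.3 in day 21 replicate 5, against 5.62 to 6.84 in the others. Jag1 was at 2.95 in day 21 replicate 5, against 1.93 to 2.13. The endothelial sums of these 2 samples, 143 and 141, were the highest of their groups.

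The difference from control changed between day 3 and day 21 for 2 genes, by the limma test of day 21 against day 3, in which the control samples cancel. It moved by 0.89 for Dll4 (adjusted p = 0.00736) and by -0.55 for Rbpj (adjusted p = 0.00532), on the log2(FPKM + 1) scale. The causes were not tested.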

How the results depend on the processing

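Of 2095 values of the 10 genes under the 42 alternatives, 1967 kept their direction and their side of the threshold, 28 lost and 39 gained a call with the same direction, and 61 changed sign. Of these 61, 1 belonged to a result called in the fit used throughout (Dll4 at day 7). Its sign changed in TPM, where it was not called. Notch2 at days 3, 7 and 14, Dll1 at day 14 and Rbpj between day 21 and day 3 were called in all 42. Causes of the other changes were not tested. The deposited scaling between samples limits most what can be said of direction: the median of all genes at day 3 was 0.51 in TPM, 0.40 with reads over the sum of each sample and -0.12 after quantile normalization. Depth limits Notch1, Dll1 and Notch2 most, with 31, 41 and 47 reads in their lowest samples.

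The number of the 10 genes called is given with the share of all genes called in the same setting. At day 3 it was 3 (43.2% of all genes), and 6 in TPM (49.1%), 6 over each sample's sum (48.9%; both times Notch2, Rbpj, Dll1, Notch3, Jag1 and Heyl, all higher) and 5 with sample quality weights (56.4%). At day 7 it was 3 (29.4%), and 1 without a filter (11.1%), 1 after quantile normalization (26.3%), 5 in TPM (44.5%) and 5 over each sample's sum (39.5%). At day 14 it was 2 (20.3%), and 5 over each sample's sum (17.5%). At day 21 it was 0 (3.43%), and 1 (Dll1) with quality weights (16.9%), with the letter as replicate block (8.43%) and with only the 2 groups (10.1%). Between day 21 and day 3 it was 2 (25.5%), and 5 with quality weights (44.2%). Leaving out each sample in turn gave 2 to 3, 1 to 4, 2, 0 and 2 to 3 in these 5 comparisons, with 1 at day 7 without control replicate 4 or day 7 replicate 1 or 4.

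Signs changed at day 3 in TPM and over each sample's sum for Hes1 (0.34 and 0.19), Hey1 (0.47 and 0.35) and Notch1 (0.26 and 0.205), and for Jag1 after quantile normalization (-0.093), with quality weights (-0.043) and without replicate 5 of days 3 and 7 (-0.044). At day 7 they changed in those 2 scalings for Hes1 (0.21 and 0.043), Heyl (0.37 and 0.22) and Hey1 (0.45 and 0.32), for Dll4 in TPM (0.0071), for Notch1 after quantile normalization (-0.067) and for Hey1 without both replicates 5 (0.0023). At day 14 they changed for Dll4 (0.16 and 0.097), Heyl (0.17 and 0.11) and Rbpj (0.23 and 0.175), and for Notch1 after quantile normalization (-0.065) and with quality weights (-0.018). At day 21 they changed for Hey1 (0.058 and 0.063), and for Dll4 with voom weights (-0.0097), quality weights (-0.13) and the letter block (-0.038). Between day 21 and day 3 they changed for Notch3 (-0.33 and -0.20), Dll1 (-0.17 and -0.055), Hey1 (-0.41 and -0.29), Jag1 (-0.38 and -0.26) and, in TPM, Hes1 (-0.082). Leaving out 1 sample changed the sign of Jag1 (-0.044 to 0.16) and Notch1 (-0.063 to 0.036) at day 3, Hey1 at day 7 (-0.20 to 0.011), Hey1 (-0.0305 to 0.19) and Notch1 (-0.038 to 0.16) at day 14, Hes1 (-0.0091 to 0.17), Dll4 (-0.15 to 0.073) and Hey1 (-0.18 to 0.012) at day 21, and Hey1 (-0.066 to 0.13) and Jag1 (-0.021 to 0.18) between day 21 and day 3.

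Samples of different groups share replicate numbers in the labels, which say nothing of a shared animal or day. Same-numbered samples did not all deviate together (the correlation of their deviations from the group means was -0.169 to 0.0551, -0.162 to -0.00213, -0.207 to 0.138 and -0.3 to 0.021 for the 4 times against control, and -0.0597 to 0.261 with 2 of 5 pairs over 0.1 between day 21 and day 3), so the numbers were not taken as pairs. With the number as a replicate block, 3, 4, 2, 0 and 2 of the 10 genes were called in the 5 comparisons, Hes1 being gained at day 7 (-0.54, adjusted p = 0.0367). With the letter of the deposited columns as a block, 3, 3, 2, 1 and 2 were called, Dll1 being gained at day 21 (0.90, adjusted p = 0.0358).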

Other observations

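The levels of further genes of the 10 ran beside the endothelial markers, and also beside those of pericytes and smooth muscle. Over the 27 samples, Pearson's r of log2 level with the endothelial sum was 0.67 for Hey1, 0.63 for Jag1 and 0.57 for Notch3, and 0.68, 0.705 and 0.72 for deviations from the group means, as a description of samples that share the scaling of 1 table. For such deviations, r of these 3 genes was 0.69, 0.68 and 0.59 with the pericyte and smooth muscle sum. With the adipocyte sum it was 0.54, 0.50 and 0.35. Notch1 and Heyl had 0.63 and 0.55 with the endothelial sum, and 0.37 and 0.49 with the pericyte and smooth muscle sum.

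Of the cell type lists not set beside a gene in the report, both neutrophil markers that passed the filter on low values were higher at day 3 and neither at day 14. Adipocyte markers had 3 of 4 genes higher at day 7, Schwann cell markers 0 of 5 and erythroid markers 0 of 3 at each of the 4 times. None of the 6 lymphocyte markers passed the filter. Beside these counts, 23.4%, 15%, 9.02% and 1.74% of all genes were called higher at days 3, 7, 14 and 21. In Schwann cell markers the summed FPKM of 1 day 7 sample was 1042 against a lowest of 11.9 in that group.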
